A study of Homo sapiens with 4 samples.

Results

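The core enzymes that carry glucose to lactate were followed in cells depleted of the long non-coding RNA USP2-AS1. The 10 genes, chosen by name, were HK2, GPI, PFKP, ALDOA, TPI1, GAPDH, PGK1, ENO1, PKM and LDHA. They were looked up by gene symbol and identifier in the table of 6828 genes deposited for the experiment. GPI, TPI1, GAPDH, PGK1, ENO1 and PKM, 6 of the 10, had a row there. HK2, PFKP, ALDOA and LDHA are not among its rows and were not analysed here. The rows hold only genes under the authors' adjusted p threshold of 0.05, and no change can be read for these absent enzymes.

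Glycolysis splits glucose into pyruvate in the cytosol and is the route by which many tumour cells make ATP and carbon skeletons even when oxygen is present. Its upper steps spend ATP to trap, rearrange and cleave the sugar, and its lower steps, from triose phosphates onward, recover ATP and NADH. Lactate dehydrogenase then turns pyruvate into lactate and restores NAD+. Several of these enzymes are textbook targets of hypoxia-inducible factors and of MYC, and GAPDH and PGK1 are also widely used as reference genes.

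The measurements were poly-A selected RNA-seq libraries of A549, a human lung adenocarcinoma line of epithelial type. Cells were infected with a pLKO.1-type lentivirus carrying either a control shRNA (shctrl) or an shRNA to USP2-AS1 (shUSP2-AS1), and RNA was taken 72 h later, with 2 biological replicates of each group. Both groups therefore share the line, the viral backbone and drug selection with puromycin. The knockdown rests on 1 hairpin, whose identity is not given in the sources used here. Uninfected cells and cells with restored USP2-AS1 were not analysed here.

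Values are normalized read counts, that is reads on a gene divided by a size factor for the library. The libraries held between 10772788 and 14120472 reads on the listed genes, which are only part of each library. For USP2-AS1 itself 24 and 22 reads were counted under shctrl and 2 and 7 under shUSP2-AS1, with a log2 fold change of -2.39 (SE 0.56, limma adjusted p = 0.000597). Each of the 6828 rows carries an adjusted p under 0.05 from the authors' own test of this contrast, so 6811 of the 6812 genes tested here (100%), those with a mean of 10 or more, passed adjusted p in one direction or the other. Passing the test therefore does not set an enzyme apart from the other rows, and the size and direction of each change are what the table adds. In bulk RNA, fewer cells of a kind and less RNA per cell cannot be told apart.

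The 4 primers below are shown because GAPDH, one of the enzymes described, is also the internal control that the study used for real-time RT-PCR, and its promoter was one of the sites amplified in its chromatin immunoprecipitation assays. Each was read from the study's primer list and placed on the hg38 genome by exact match. In the first, the start codon is in capitals.
GAPDH transcript forward: ccATGgggaaggtgaaggtc
GAPDH transcript reverse: gaaggggtcattgatggcaac
GAPDH promoter forward: tactagcggttttacgggcg
GAPDH promoter reverse: tcgaacaggaggagcagagagcga

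The transcript pair lies on the plus strand at chr12:6534831-6534850, in exon 2, and on the minus strand at chr12:6536555-6536575, in exon 3 of the 9-exon GAPDH transcript ENST00000229239.10, and brackets 113 bases of cDNA. The forward primer had 3 exact matches in the genome, 1 in GAPDH and 2 in GAPDH pseudogenes, and the reverse primer had 8, of which 7 were in GAPDH pseudogenes. The promoter pair, at chr12:6534373-6534392 and chr12:6534515-6534538, had 1 match each and brackets 166 bases across the first base of the first exon.

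The sequence below is the promoter of PGK1, the enzyme with the largest log2 fold change among the listed enzymes, and is the 250 bases before the RefSeq start of the gene (GRCh38.p14, chrX:78103998-78104247, plus strand). Capitals mark ACGTG or GCGTG, the core letters that hypoxia-inducible factors recognise, on either strand.
PGK1 promoter: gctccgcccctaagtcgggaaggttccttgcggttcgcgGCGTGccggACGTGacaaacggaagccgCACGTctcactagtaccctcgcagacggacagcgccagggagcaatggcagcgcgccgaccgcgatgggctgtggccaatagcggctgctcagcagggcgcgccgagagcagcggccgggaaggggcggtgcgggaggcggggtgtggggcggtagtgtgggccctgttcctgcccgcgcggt

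PGK1 had GCGTG 211 bases and ACGTG 202 bases before the start, and ACGTG on the opposite strand at 183 bases. ACGTG or GCGTG on either strand was present in 43.2% of 35116 RefSeq windows of the same length. Among the listed enzymes, 5 of 7 windows had a match. PKM had none, and TPI1 had none in the window at its canonical start and a match in a second window downstream of it. The palindrome CACGTG, which MYC and its partners bind and which contains ACGTG on both strands, was present in 6.34% of all windows and in the window of 1 listed enzyme, GAPDH. The GAPDH window lies downstream of the first exon of the transcript above, and several windows overlap annotated exons. These are matches of letters, and binding was not measured.

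Of the 10 chosen enzymes, all 6 with a row were lower in shUSP2-AS1 cells. Of the 6812 tested genes, 49.4% passed adjusted p in that direction and 50.6% in the other. The sizes were unequal, since PGK1, TPI1 and ENO1 were between 23.9% and 29.9% below their shctrl mean, and PKM, GPI and GAPDH between 11.3% and 12.4% below it. The 2 groups of libraries did not overlap for any of the 6, which was also so for 6811 of the 6812 tested genes, 49.3% of all tested genes being lower and without overlap. None of the 6 reached an absolute log2 fold change of 1 as well as the adjusted p, which 29.7% of tested genes did.

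The upper part of the pathway is represented by GPI, which interconverts glucose-6-phosphate and fructose-6-phosphate (chr19:34359480-34402413, plus strand). Its normalized read counts were 15087 and 14557 in shctrl and 12838 and 13263 in shUSP2-AS1, or 14822 ± 375 against 13050 ± 300.5 (SD, n = 2 each). The lower shctrl library stood 9.76% above the higher shUSP2-AS1 library, while replicates differed by 3.64% and 3.31%. The log2 fold change was -0.18 (SE 0.05, limma adjusted p = 0.00147).

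TPI1, which interconverts the triose phosphates so that both products of aldolase can continue (chr12:6867119-6870948, plus strand), had normalized read counts of 15840 and 14169 in shctrl and 10376 and 11402 in shUSP2-AS1. Both shUSP2-AS1 libraries were below both shctrl libraries, and the replicates of TPI1 were the farthest apart of the 6 enzymes, by 11.8% in shctrl and 9.89% in shUSP2-AS1. Its log2 fold change came to -0.46 (SE 0.06, limma adjusted p = 1.10e-06), or 27.4% below the shctrl mean.

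GAPDH, which oxidises glyceraldehyde-3-phosphate and yields NADH (chr12:6534512-6538374, plus strand), had normalized read counts of 58151 and 56065 in shctrl and 49915 and 51424 in shUSP2-AS1. The groups were separate, at 57108 ± 1475 against 50669.6 ± 1067 (SD, n = 2 each), but the gap between the nearest libraries of opposite groups was 9.03%. The log2 fold change of GAPDH was -0.17 (SE 0.05, limma adjusted p = 0.00503), smaller in size than that of all but 0.646% of tested genes. Without the first shctrl library the log2 fold change was -0.15 and no longer passed (limma adjusted p = 0.0852).

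PGK1, the first ATP-yielding enzyme of the pathway (chrX:77910739-78129295, plus strand), had normalized read counts of 13462 and 12574 in shctrl and 8968 and 9281 in shUSP2-AS1. This was the widest separation among the enzymes, with the lower shctrl library 35.5% above the higher shUSP2-AS1 library. The log2 fold change was -0.51 (SE 0.05, limma adjusted p = 4.02e-08). The listed interval of PGK1 overlaps ATP7A, a copper transporter on the same strand, which had 575 and 692 in shctrl and 957 and 898 in shUSP2-AS1 and so moved the other way. ATP7A was chosen for this overlap after its values were seen. The interval also overlaps the pseudogene C4orf46P2 on the same strand and PGAM4 on the opposite strand.

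ENO1, which forms phosphoenolpyruvate (chr1:8861000-8879190, minus strand), had normalized read counts of 65925 and 62451 in shctrl and 47576 and 50119.8 in shUSP2-AS1. Replicates differed by 5.56% and 5.35%, and the nearest libraries of opposite groups by 24.6%. The log2 fold change was -0.39 (SE 0.06, limma adjusted p = 3.63e-06). Its interval overlaps the antisense gene ENO1-AS1, as those of TPI1 and GAPDH overlap genes on the opposite strand. That of GPI overlaps ENSG00000266953, a protein-coding gene on the same strand as GPI. Whether reads were counted by strand is not given in the sources used here.

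PKM, the pyruvate kinase that makes the last ATP of the pathway (chr15:72199029-72231822, minus strand), had normalized read counts of 85930 and 81112 in shctrl and 72013 and 74271 in shUSP2-AS1. The groups were separate by 9.21% between their nearest libraries, with replicates 5.94% and 3.13% apart. The log2 fold change of PKM was -0.19 (SE 0.06, limma adjusted p = 0.00398). Without the first shctrl library it was -0.15 and did not pass (limma adjusted p = 0.106). Counts per gene do not separate the PKM1 and PKM2 splice forms.

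**Figure D1:**
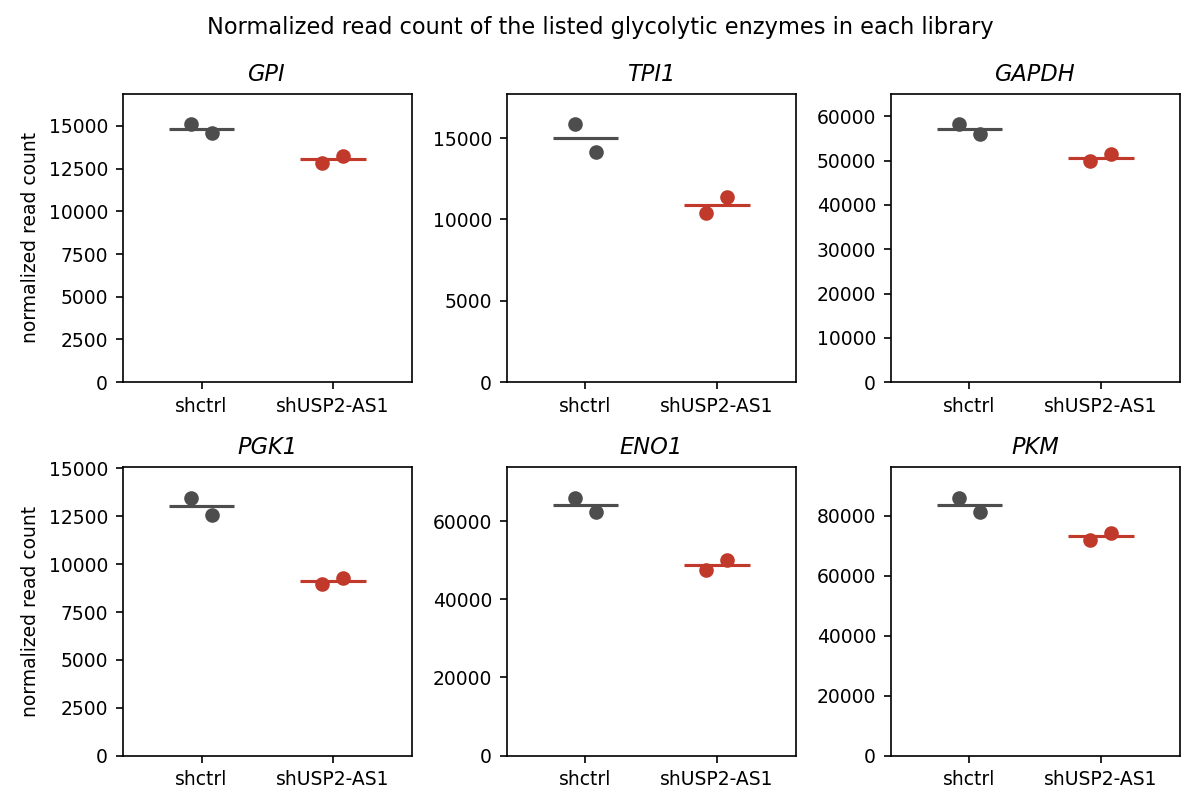
Normalized read count (vertical axis, from 0) of the 6 listed enzymes in the 2 shctrl and 2 shUSP2-AS1 libraries. Points are libraries and horizontal lines are group means, and in every panel both shUSP2-AS1 points lie below both shctrl points, with the widest relative gap for PGK1 and narrower gaps for GPI, GAPDH and PKM.

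Other scaling shifted the log2 fold changes of all 6 enzymes alike, which weighs most on the 3 smaller ones. With relative log expression scaling of the listed genes, which lowered the median log2 fold change of all genes by 0.12, the log2 fold changes of GPI, GAPDH and PKM were -0.30, -0.29 and -0.31. With upper quartile scaling they were -0.12, -0.11 and -0.13, and all 3 still passed. PGK1, TPI1 and ENO1 ranged over all 13 alternatives from -0.63 to -0.45, from -0.58 to -0.38 and from -0.51 to -0.33, and passed in each. None of the 6 changed direction in any of them.

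**Figure D2:**
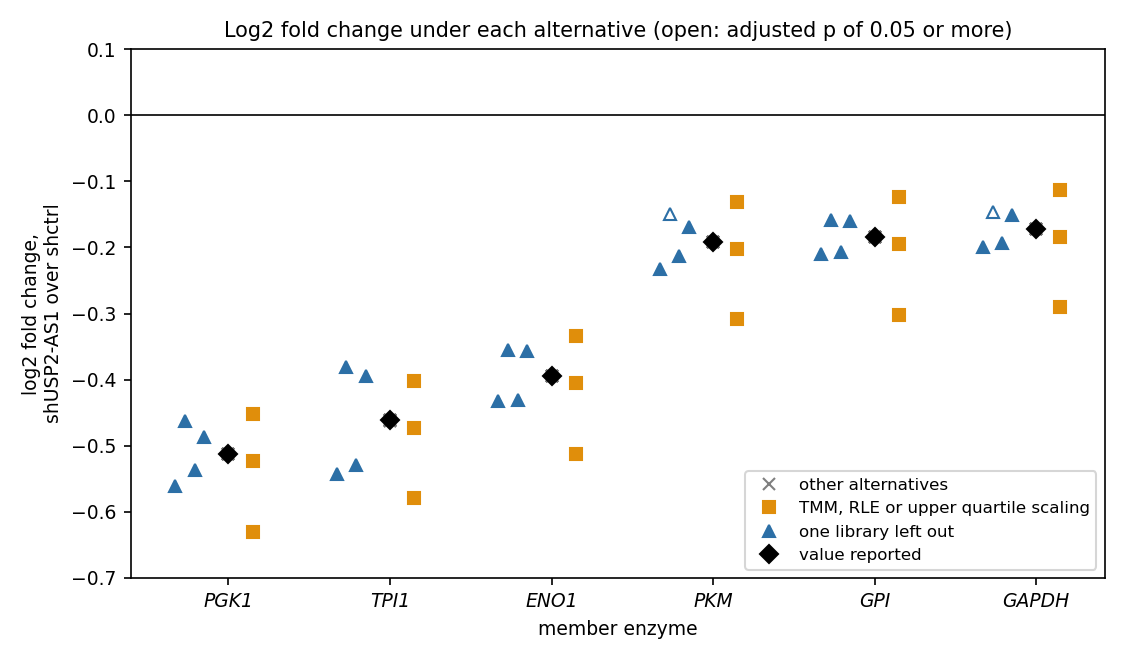
Log2 fold change, shUSP2-AS1 over shctrl (vertical axis), of each listed enzyme under the reported setting (diamond) and 13 alternatives (crosses, mostly behind the diamonds, squares for scaling, triangles for 1 library left out). All values are below 0, and the 2 open triangles are GAPDH and PKM without the first shctrl library, with adjusted p of 0.0852 and 0.106.

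Reads shared with processed copies could not be resolved. GENCODE release 44 names 65 pseudogenes of GAPDH, 5 of PKM, 4 each of TPI1 and ENO1 and 2 of PGK1 by symbol, and none of these has a row in the table. How multi-mapping reads were treated is not given in the sources used here, so the levels of these enzymes carry that uncertainty.

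Per kilobase of the listed gene length, the order of the enzymes was the same in all 4 libraries. GAPDH was highest, at 23835 ± 616 normalized reads per kilobase in shctrl and 21148 ± 445 in shUSP2-AS1 (SD, n = 2 each). ENO1 followed at 12306 ± 471 and 9365 ± 345, and PKM at 9745 ± 397 and 8534 ± 186. TPI1, at 5557 ± 438 and 4033 ± 269, stood between these abundant enzymes and PGK1, at 2394 ± 115 and 1678 ± 40.7. GPI was lowest, at 1388 ± 35.1 and 1222 ± 28.1. No neighbours in this order came within their spread of each other in the same group, although the shUSP2-AS1 level of ENO1 was below the shctrl level of PKM. That spread holds no error of length, and the order depends on the length used. For GAPDH the listed length was 2396 bases, against 1285 for the transcript above. By mean normalized read count over the 4 libraries PKM was highest, and GPI, at 13936, stood above TPI1 and PGK1, at 12947 and 11071.

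Added together, the 6 enzymes had 254396 and 240928 normalized reads in shctrl and 201686 and 209760 in shUSP2-AS1. This was 2.09% ± 0.0708 of all listed values in shctrl and 1.66% ± 0.0355 in shUSP2-AS1 (SD, n = 2 each). The median log2 fold change of the 6 was -0.29, beside 0.19 over all tested genes. The latter turns with the filter on low values: over the 6092 genes with a mean of at least 100 it was -0.23, and the gap to the enzymes narrowed from -0.48 to -0.06. Of the other 117 genes with a mean normalized read count at or above the lowest of the 6, 35 were lower and 81 higher by adjusted p, with a median of 0.27.

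Ratios between enzymes within a library do not depend on the size factor. Taking GAPDH as the denominator, GPI and PKM kept almost the same ratio in both groups. Their log2 ratios were lower in shUSP2-AS1 by 0.01 and 0.02, without overlap between groups. For PKM they were 0.563 and 0.533 in shctrl and 0.529 and 0.530 in shUSP2-AS1. The nearest PKM libraries of opposite groups were thus closer than the shctrl replicates. ENO1, TPI1 and PGK1 moved away from GAPDH. The log2 ratio of ENO1 to GAPDH was 0.18 and 0.16 in shctrl and -0.07 and -0.04 in shUSP2-AS1. For TPI1 it was -1.88 and -1.98 against -2.27 and -2.17, and for PGK1 -2.11 and -2.16 against -2.48 and -2.47. With 2 libraries in each group, the exact two-sided permutation test cannot give a p below 0.333, and each of the 5 ratios reached that value.

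**Figure D3:**
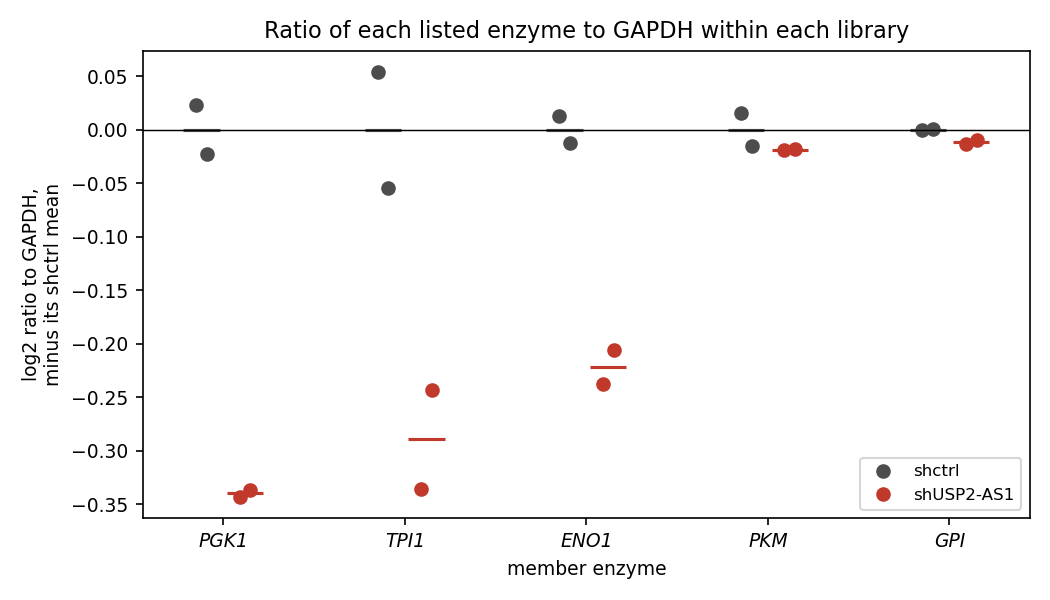
Log2 ratio of each listed enzyme to GAPDH in the same library, minus the mean of that ratio in shctrl (vertical axis). Points are libraries and short lines are group means, and PGK1, TPI1 and ENO1 have shUSP2-AS1 means 0.34, 0.29 and 0.22 below shctrl while PKM and GPI lie within 0.02 of it.

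PGK1 also separated from PKM, the other ATP-yielding enzyme, with a log2 ratio of -2.67 and -2.69 in shctrl and -3.01 and -3.00 in shUSP2-AS1. TPI1 and ENO1 kept closer company, since the log2 ratio of TPI1 to ENO1 was -2.06 and -2.14 against -2.20 and -2.14, and the groups overlapped.

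The denominator matters for any transcript expressed relative to GAPDH. ACTB, the cytoskeletal actin that is another common reference, rose (log2 fold change 0.41, limma adjusted p = 5.68e-06), and its log2 ratio to GAPDH was 0.54 and 0.59 in shctrl and 1.11 and 1.18 in shUSP2-AS1. E2F1, a transcription factor of the cell cycle, had a log2 fold change of -2.12 by the size factors and of -1.95 relative to GAPDH. ACTB and E2F1 were added for this comparison after their values were seen.

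The steps around these enzymes were described from lists of related genes. Of 24 other isozymes of the same steps and genes related to them or alike in symbol, 10 had a row. Of these, 6 were lower and 4 higher, beside 49.4% and 50.6% of all tested genes passing adjusted p in each direction. The same shares stand beside the counts of each list below. The median log2 fold change of the 10 was -0.32. None passed an absolute value of 1 in the reported fit, which 29.7% of all tested genes did. BPGM, at -0.997, passed that size in 5 of 13 alternatives, reaching -1.19, and LDHD, at 0.95, in 2. PGAM1, the mutase that links PGK1 to ENO1, had normalized read counts of 9342 and 8757 in shctrl and 7129.7 and 7614 in shUSP2-AS1 (log2 fold change -0.30, limma adjusted p = 4.04e-05). With PGAM1, each lower step from TPI1 to PKM had a gene below shctrl. The enolase ENO3 was higher, with a log2 fold change of 0.41. PFKL, the liver-type phosphofructokinase, was also lower, with 2184 and 2073 against 1733 and 1601 (log2 fold change -0.35, limma adjusted p = 3.02e-05).

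The hexokinases that had a row went the other way. HK1, which phosphorylates glucose at entry, had 3178 and 3253 in shctrl and 3675 and 3670.5 in shUSP2-AS1 (log2 fold change 0.19, limma adjusted p = 0.00144), and under relative log expression scaling its change was 0.07 and did not pass (limma adjusted p = 0.155). HKDC1, a related hexokinase, had 2606 and 2696 against 3222 and 3507 (log2 fold change 0.34, limma adjusted p = 1.78e-05). The remaining 6 genes of the list were named after their values were seen. PFKM, ENO2, BPGM and PGAM5, a mitochondrial phosphatase despite its symbol, were lower, and ENO3 and LDHD higher. ENO3, the muscle-type enolase, rose by 0.41 on the log2 scale while ENO1 fell by 0.39, and its log2 ratio to ENO1 was -5.89 and -5.87 in shctrl and -5.07 and -5.08 in shUSP2-AS1.

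**Figure D4:**
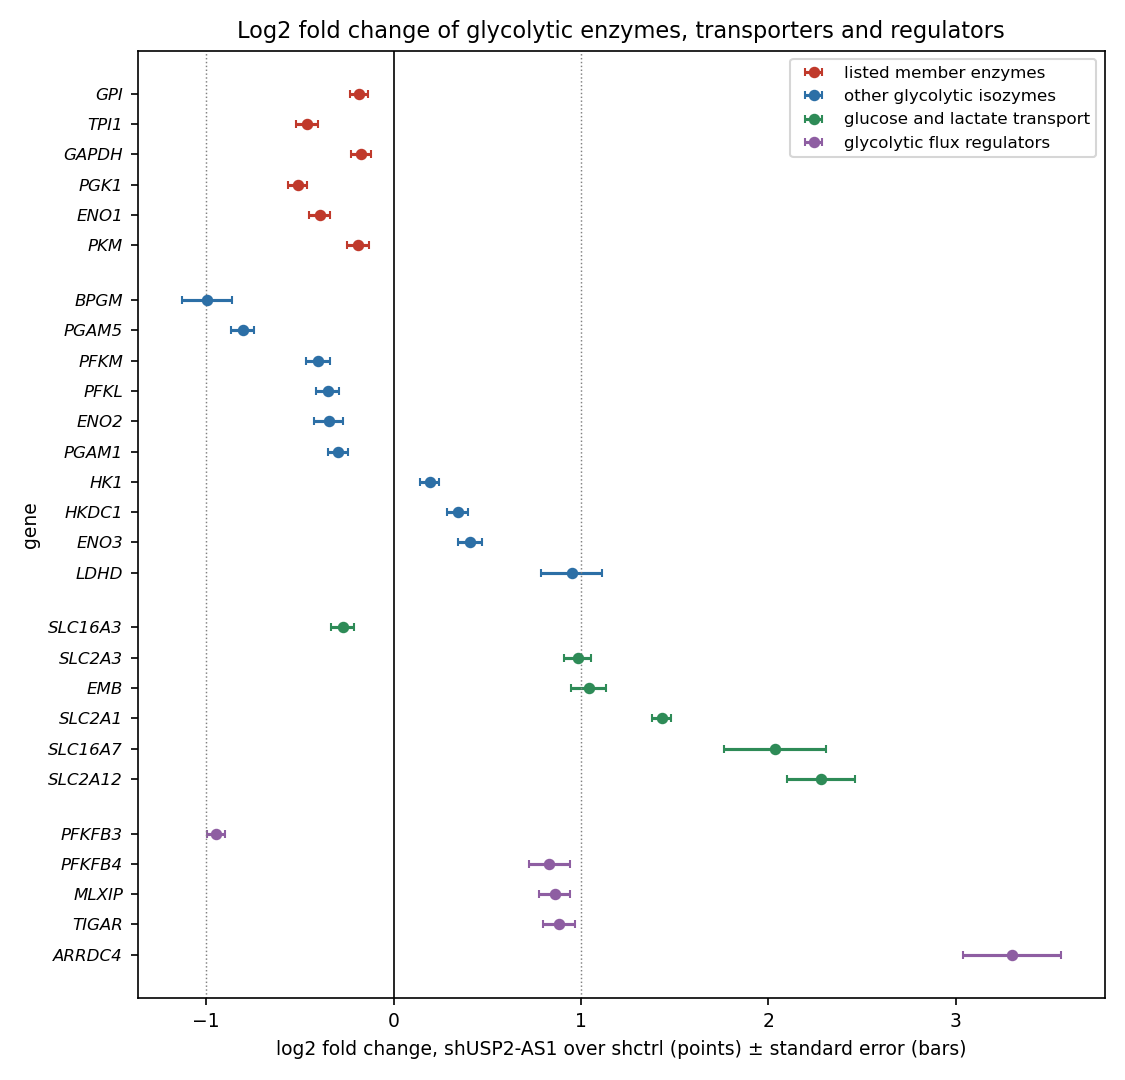
Log2 fold change, shUSP2-AS1 over shctrl (horizontal axis), with points for the estimate and bars for its standard error. The genes are the 6 listed enzymes, 10 other isozymes or related genes, 6 transporter genes and 5 flux regulators. Dotted lines mark log2 fold changes of -1 and 1, and TXNIP is left out because its shctrl libraries held 3 and 0 reads; the listed enzymes lie between -0.51 and -0.17 while most transporter genes lie above 0.9.

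Genes for glucose and lactate transport differed in direction from the enzymes. Of 16 in the list, 6 had a row, 5 higher and 1 lower, with a median log2 fold change of 1.24. SLC2A1, which encodes the glucose transporter GLUT1, had normalized read counts of 3297 and 3105 in shctrl and 8627 and 8625 in shUSP2-AS1, and its log2 fold change was 1.43 (SE 0.05, limma adjusted p = 6.41e-14). Within each library, SLC2A1 relative to GAPDH had a log2 ratio of -4.14 and -4.17 in shctrl and -2.53 and -2.58 in shUSP2-AS1, so the transporter and the enzymes moved apart whatever the size factor. SLC2A3, encoding GLUT3, had a log2 fold change of 0.98, and SLC2A12 one of 2.28 from values of 42.5 and 39.6 against 208 and 198. The monocarboxylate transporter SLC16A7 (MCT2) and the chaperone EMB also rose, by 2.04 and 1.04. SLC16A7 had few reads, 41 and 19 in shctrl and 126 and 126 in shUSP2-AS1. SLC16A3, encoding the lactate exporter MCT4, was the gene that fell, with 2787 and 2525 against 2301 and 2098 (log2 fold change -0.27, limma adjusted p = 0.000496).

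Regulators of glycolytic flux were mixed. PFKFB3, which makes the fructose-2,6-bisphosphate that activates phosphofructokinase, had 13468 and 13664.5 in shctrl and 7019 and 7058 in shUSP2-AS1, 48.1% below its shctrl mean (log2 fold change -0.95, limma adjusted p = 4.96e-12). This was a larger change than in any of the 6 enzymes. The other 5 regulators with a row, of 10 in the list, were higher. PFKFB4, of the same family, had a log2 fold change of 0.83, TIGAR, which degrades fructose-2,6-bisphosphate, of 0.88, and the glucose-responsive factor MLXIP of 0.86. TXNIP, an inhibitor of glucose uptake, had 3 and 0 reads in shctrl and 32 and 30 in shUSP2-AS1, and its relative ARRDC4 had 28 and 13 against 196 and 227 reads.

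The pathways that branch from these enzymes did not share 1 direction. In the pentose phosphate pathway, 8 of 9 genes had a row, 5 lower and 3 higher, with a median of -0.20. PGD had a log2 fold change of -0.41 and TKT of -0.27, TALDO1 one of 0.37. Of 15 genes for pyruvate entry to mitochondria, 6 had a row, 3 in each direction, among them DLD at 0.55, PDHA1 at -0.57, PC at 0.76 and PDHX at -0.66.

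Of 12 genes on branches to serine, glycerol, hexosamine and the NADH shuttles, 8 had a row, 6 lower and 2 higher. PHGDH, which draws 3-phosphoglycerate, the product of PGK1, into serine synthesis, had 926 and 837 in shctrl and 265 and 261 in shUSP2-AS1 (log2 fold change -1.74, limma adjusted p = 8.71e-12). PSAT1, the next enzyme of that branch, had a log2 fold change of -0.46, and MDH1 of the malate shuttle one of -0.61. GOT2 had a log2 fold change of -0.16 (limma adjusted p = 0.00558), which did not pass with upper quartile scaling (0.0605) or without the first shUSP2-AS1 library (0.0777). GPD1L and GFPT2 were higher, by 1.00 and 0.72.

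In glycogen metabolism, 5 of 12 genes had a row. GYS1, the glycogen synthase of most tissues, had 1430 and 1452 in shctrl and 352 and 320 in shUSP2-AS1 (log2 fold change -2.10, limma adjusted p = 1.39e-13), while PYGB, PYGL, UGP2 and GBE1 were higher, at 0.28, 0.24, 0.42 and 0.75. Of 9 genes of gluconeogenesis, G6PC3 had a row and was higher, at 0.43. Over the 9 lists outside the 10 enzymes, 29 of 64 genes with a row were lower and 35 higher, beside 49.4% and 50.6% of all tested genes.

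Hypoxia factors and targets, and MYC, were looked at as well. Of 22 hypoxia factors and targets, 14 had a row, 6 lower and 8 higher, beside 49.4% and 50.6% of all tested genes. Their median log2 fold change was 0.34, and none passed an absolute value of 1. CA12 and NDRG1 were higher, at 0.34 and 0.33, and EPAS1, which encodes HIF-2α, and DDIT4 lower, at -0.43 and -0.37. MYC, looked at after its values were seen, had 2965 and 2928 in shctrl and 2104 and 2168 in shUSP2-AS1, with -0.46 as its log2 fold change (limma adjusted p = 2.86e-07).

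Other transcripts moved between the same groups. Of 9 epithelial markers, 5 had a row: KRT8, KRT7 and KRT18 were lower and KRT19 and CLDN4 higher, and their summed values were 179356 and 168247 in shctrl and 106691 and 113273 in shUSP2-AS1. Of 8 fibroblast markers, COL1A1 had a row at a log2 fold change of 1.05 and LUM had 2 and 1 reads in shctrl against 24 and 18. No immune or endothelial marker had a row, of 6 and 5. The 6 mitochondrial transcripts with a row, of 13, summed to 568907 and 557254 in shctrl and 635063 and 647107 in shUSP2-AS1. The total was also taken without every row whose symbol starts with MT-, a wider set than these 6. The share of the 6 enzymes was then 2.23% ± 0.0756 in shctrl and 1.80% ± 0.0385 in shUSP2-AS1. The part of these transcripts in the lower enzyme levels was not tested.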

How the data were processed

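RNA-seq was analysed in 4 A549 libraries, 2 shctrl and 2 shUSP2-AS1. Per the labels, reads were processed with HISAT2 2.0.5, featureCounts 1.5.0-p3 and DESeq2 1.20.0 on hg38; the deposited values are normalized signal, gene read counts divided by a size factor, beside the gene length that the authors give. All deposited rows carry an adjusted p-value of the authors under 0.05, so the table is a selection on the same contrast. The authors' fold change and p-value columns were not used, apart from counting rows under that threshold. Dividing by the value of 1 read gave whole reads for 100% of values in each library. The tolerance was 0.001 reads for low counts and grew in proportion to the count for high ones.

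Values were tested as log2(value + 1) with limma 3.58.1 (R 4.3.3; lmFit, eBayes with trend) over 6812 genes with a mean of at least 10, with Benjamini-Hochberg adjustment over all of them. Fold changes are on that scale and are understated for low genes. Calls needed an adjusted p under 0.05 together with a log2 fold change of 1 or more in size. On the recovered reads, edgeR 4.0.16 called 923 genes lower and 1099 higher and DESeq2 1.42.0 called 922 and 1099. The fits were tested on simulated data. The enzymes and gene lists were chosen with earlier results of these data known. Named genes were all 10 enzymes and, from each other list, called genes and up to 4 others with the largest mean. Promoters came from RefSeq (GRCh38.p14), gene intervals from the table. The values of 1 gene that this rule selects are not reported here.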

Additional observations from a re-analysis of the deposited data

How the results depend on the processing

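The 6 listed enzymes kept their direction in all 78 values from 13 alternatives and passed adjusted p in 76; the exceptions were GAPDH and PKM without the first shctrl library, so that 4 of the 6 passed there. Their median log2 fold change was -0.41 with relative log expression scaling and -0.23 with upper quartile scaling, which shifted the median of all genes by -0.12 and 0.06, and between -0.33 and -0.26 when 1 library was left out. Leaving out 1 library gave between 885 and 958 genes called lower and between 1054 and 1112 called higher, against 922 and 1098. Relative log expression scaling turned the balance of calls, with 1143 lower and 929 higher, and upper quartile scaling gave 829 and 1204. With a minimum mean of 100, 648 genes were called higher, of fewer genes tested, and the median of all genes moved by -0.41 to -0.23, a gap of -0.06 to the enzymes. Other pathway genes kept direction in all 829 values and the side of the adjusted p threshold in 823. With the size of the log2 fold change included, 18 of 907 values, the 6 enzymes included, from 7 of 70 genes changed call, none of them an enzyme of the 6: EMB and GPD1L lost it, and BPGM, LDHD, MXI1, PFKFB3 and SLC2A3 gained it, under between 1 and 5 alternatives each (MXI1 was chosen after its values were seen). The values showed no shared effect of replicate number (correlation of replicate differences -0.04 over 6812 genes). Whether libraries were prepared in pairs is not given by the labels and cannot be read from this correlation. With a replicate block the median of the enzymes was -0.29, with 922 genes called lower and 1098 higher. With 1 library left out, the remaining library of its group is assumed to vary like the other group. Having 2 libraries in a group, 1 hairpin and a table limited to genes already past a test limits what can be read from these values.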
